A study of Bubalus bubalis with 12 samples.

Results

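Of the 34037 genes in the deposited expression table, 10 belong to the core of Wnt signalling and are described here in the ruminal wall of dairy buffaloes (Bubalus bubalis). They are the nuclear factors TCF7, LEF1, TCF7L1 and TCF7L2, their partner CTNNB1, the feedback gene AXIN2, the ligand WNT5A and the receptors ROR1, ROR2 and RYK. A row was taken when its gene name equalled one of these symbols, and each symbol had 1 row. The list was made with earlier results of these animals known: TCF7, LEF1 and ROR2 were chosen by their difference in level between the diets, TCF7 and LEF1 for opposite signs of it, and the other 7 as their family members and partners. For that reason the diet differences of all 10 genes are given as a description, with no p-value for any of them.

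The control group of 6 animals was fed a total mixed ration (TMR) and the treated group of 6 animals a TMR with ryegrass cut green as 30% of the diet. From the frozen tissue of every animal 1 stranded library of total RNA was made. The levels are FPKM, the fragments counted on a gene per kilobase of that gene and scaled to all fragments counted in that animal, so that levels of different genes can be set side by side. The whole number of reads behind each FPKM could be worked out and is given where it was low. The animals had 10531541 to 12948372 counted fragments, with medians of 12414349 in the control and 12031597.5 in the treated group. Since the samples are pieces of ruminal wall, of a depth that is not stated, fewer cells of a type and less RNA per cell cannot be told apart.

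Wnt ligands are secreted proteins that bind receptors at the cell surface. In the canonical branch the signal keeps beta-catenin, the product of CTNNB1, from being destroyed, and beta-catenin then binds TCF/LEF factors on DNA and turns their targets on, AXIN2 among them. In the other branch, ligands such as WNT5A act through ROR1, ROR2 and RYK on cell shape, polarity and movement without this nuclear step. In epithelia the canonical branch is known for the upkeep of basal cells, and in T cells TCF7 and LEF1 are known as factors of naive and memory cells.

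The tissue carried the markers of a stratified squamous epithelium at high levels. The summed FPKM of the 11 squamous markers in the table, KRT5 the highest of them, was 2813 to 4753 in control and 2619 to 5507 in treated animals. The summed level of the 10 fibroblast markers ran from 45.7 to 289.5 and from 20.1 to 176, that of the 11 smooth muscle markers from 33.0 to 56.9 and from 22.4 to 47.8, and that of the 16 T cell markers in the table from 43.0 to 71.5 and from 32.0 to 74.7. Among B cell markers CD79B was at 0 in all 12 animals, and MS4A1 and PAX5 were below the filter on low values. Endothelial markers summed to 14.2 to 41.4 and 10.4 to 40.2 FPKM. The 9 markers of glia and neurons, mostly S100B, summed to 5.26 to 15.7 and 2.35 to 8.38 FPKM and the 6 of melanocytes, mostly MITF, to 1.64 to 2.46 and 1.68 to 1.98, while SOX10, ELAVL4, TYR, DCT and TYRP1 were at 0 in all animals. On the first component of the genes with a mean of at least 1 FPKM, taken after centring on the group means and holding 21.8% of the variance, treated animal 6 had a loading of 0.76 and control animal 6 of 0.44, while the highest of the other 10 animals was 0.02. Several results are therefore also given without these 2 libraries.

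TCF7 (gene 102408996), which codes for the T cell factor TCF-1, had a higher mean in the treated group. In control animals its FPKM was 0.649 at the lowest, 0.785 at the median and 0.932 at the highest, and in treated animals 0.898, 1.33 and 1.85. All 6 treated animals lay above the control median and 5 of 6 above every control animal, and the groups overlapped only through treated animal 6. The means were 0.787 ± 0.118 (SD, n = 6) in control and 1.34 ± 0.374 in treated animals, a ratio of 1.70. On the log2(FPKM + 0.01) scale the difference, treated minus control, was 0.72 with a standard error of 0.24, and it stayed between 0.62 and 0.83 when each animal was left out in turn. Reads per animal were 21 to 34 in the control and 34 to 66 in the treated group, so that each value rests on few reads. With a pseudocount of 1 FPKM, near the level of the gene itself, the difference was 0.37.

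LEF1 (gene 102409520), the lymphoid enhancer-binding factor of the same family, had a lower mean in the treated group but was near the limit of detection in several animals. Its reads in control animals 1 to 6 were 53, 23, 1, 30, 7 and 34, and in treated animals 1 to 6 they were 2, 14, 1, 9, 18 and 3. In FPKM the lowest, median and highest values were 0.0111, 0.309 and 0.608 in control and 0.0120, 0.0707 and 0.219 in treated animals. Thus 4 control animals were above every treated animal and 1 control animal was below every treated one, with all 6 treated animals below the control median. The means were 0.298 ± 0.226 and 0.0940 ± 0.0853 FPKM, a ratio of 0.316. The log2 difference was -1.42 with a standard error of 0.91, and ranged from -2.06 to -1.07 with single animals left out. Since low values weigh heavily on this scale, the difference was -0.89 with a pseudocount of 0.1 and -0.23 with a pseudocount of 1.

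TCF7L2 (gene 102393101) was the most abundant TCF/LEF gene of the wall. This factor, also known as TCF-4, is the usual TCF of intestinal epithelium. It had 1.14, 2.12 and 3.08 FPKM at the lowest, median and highest control animal and 1.90, 2.21 and 3.91 FPKM in treated animals. The groups overlapped between 1.90 and 3.08 FPKM, with 3 control animals below every treated animal and 1 treated animal above every control animal. Means were 2.11 ± 0.710 and 2.51 ± 0.758 FPKM and the log2 difference was 0.27 with a standard error of 0.26. TCF7L1 (gene 102410081), which codes for TCF-3, mostly a repressor, was scarcely detected, with 1 to 7 reads in control and 0 to 12 reads in treated animals. Treated animal 6 had 0 reads, a count that allows up to 0.0850 FPKM. The mean FPKM of TCF7L1 was slightly higher in the treated group, 0.141 ± 0.130 against 0.132 ± 0.0726, whereas its mean log2 difference was -0.36 with a standard error of 0.84. Without the 2 libraries that stood apart that difference was 0.50 with a standard error of 0.67, and no direction can be given.

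The make-up of the TCF/LEF signal was compared in each animal as a share of the summed FPKM of the 4 genes. The sum was 3.33 ± 0.942 FPKM in control and 4.08 ± 1.10 FPKM in treated animals, and TCF7L2 made up 62.8% ± 4.70 and 61.6% ± 6.78 of it. TCF7 made up 25.3% ± 7.49 in the control group, with animals from 17.5% to 35.4%, and 32.7% ± 2.56 in the treated group, with animals from 30.4% to 37.5%. The share of LEF1 was 8.07% ± 5.68 against 2.33% ± 1.99. The log2 ratio of TCF7 to LEF1 was 2.01 ± 1.81 in control animals, from 0.30 to 4.96, and 4.15 ± 1.32 in treated animals, from 2.78 to 5.77. TCF7 was thus above LEF1 in all 12 animals, and the ratio of control animals 3 and 5 lay inside the range of the treated group.

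**Figure D1:**
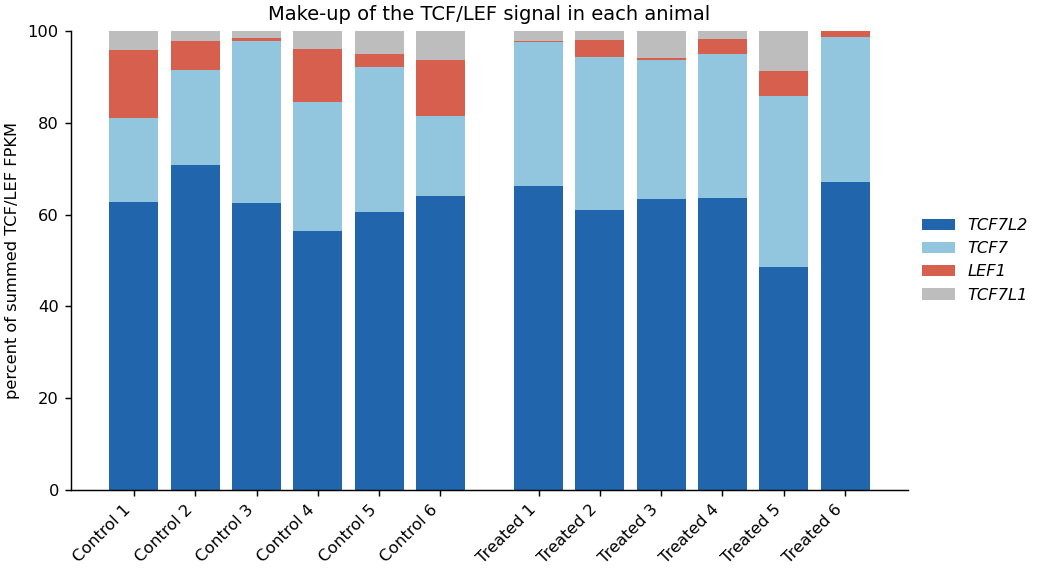
Share of each TCF/LEF gene in the summed TCF/LEF FPKM of every animal, in percent, with control animals on the left and treated animals on the right. TCF7L2 is the largest block in all 12 animals, and the LEF1 block reaches 14.8% in control animal 1 and at most 5.26% in a treated animal.

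CTNNB1 (gene 102396277) was among the abundant genes of the tissue and varied little. Besides its part in Wnt signalling, beta-catenin is a component of the adherens junctions that join epithelial cells. Its FPKM was 173, 183 and 206 at the lowest, median and highest control animal and 158, 182 and 232 in treated animals. The treated animals enclosed the control range on both sides. The means were 187 ± 12.9 and 188 ± 27.3 FPKM, with a log2 difference of -0.00 and a standard error of 0.11. Of the genes tested, 4.56% had a smaller spread within groups.

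AXIN2 (gene 102388903), part of the complex that marks beta-catenin for destruction and itself a target of the canonical branch, overlapped almost fully between the groups. Control animals had 1.22, 2.96 and 4.42 FPKM at the lowest, median and highest and treated animals 1.09, 3.03 and 5.38 FPKM. The lowest value of either group was that of its animal 6, the animals with the highest loadings on the first component. Means were 2.81 ± 1.09 and 3.21 ± 1.39 FPKM, and the log2 difference was 0.15 with a standard error of 0.37. Without the 2 libraries that stood apart, the difference was 0.22 with a standard error of 0.23.

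WNT5A (gene 102403744), the ligand of the ROR and RYK receptors, had 2.18, 3.08 and 3.89 FPKM at the lowest, median and highest control animal and 1.56, 3.51 and 5.61 FPKM in treated animals. The treated values spread to both sides of the control range. Means were 3.03 ± 0.615 and 3.51 ± 1.45 FPKM, with a log2 difference of 0.12 and a standard error of 0.28.

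ROR2 (gene 102410539), a receptor tyrosine kinase-like protein through which WNT5A acts on polarity, had a lower mean in the treated group. Control animals had 0.691, 1.35 and 3.92 FPKM at the lowest, median and highest and treated animals 0.235, 0.695 and 1.28 FPKM. All 6 treated animals were below the control median, 3 of them were below every control animal and 3 control animals were above every treated one. The means were 1.64 ± 1.20 and 0.695 ± 0.346 FPKM, a ratio of 0.424, and the log2 difference was -1.12 with a standard error of 0.47. Control animal 2 alone held 27.8% of the reads of the gene, and the difference ranged from -1.33 to -0.82 with single animals left out. With both libraries that stood apart left out it was -0.83 with a standard error of 0.47.

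ROR1 (gene 102415515), the other member of this receptor family, was low. It had 5 to 31 reads in control and 1 to 27 reads in treated animals, or 0.0599, 0.215 and 0.432 FPKM at the lowest, median and highest against 0.0123, 0.134 and 0.312 FPKM. Of the treated animals, 5 of 6 lay below the control median, but only treated animal 1 below every control animal. The means were 0.222 ± 0.124 and 0.142 ± 0.101 FPKM, and the log2 difference was -0.79 with a standard error of 0.67. ROR1 and ROR2 together summed to 1.86 ± 1.16 FPKM in control and 0.837 ± 0.323 FPKM in treated animals.

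RYK (gene 102401090), a further WNT5A receptor with an inactive kinase domain, was the most abundant of the receptors in the list. Its FPKM was 29.7, 35.5 and 41.9 at the lowest, median and highest control animal and 29.5, 37.7 and 60.1 in treated animals. The groups overlapped, and the highest value was that of treated animal 6. Means were 35.5 ± 3.99 and 40.0 ± 11.0 FPKM, with a log2 difference of 0.14 and a standard error of 0.16. Without the 2 libraries that stood apart the difference was 0.06 with a standard error of 0.11.

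**Figure D2:**
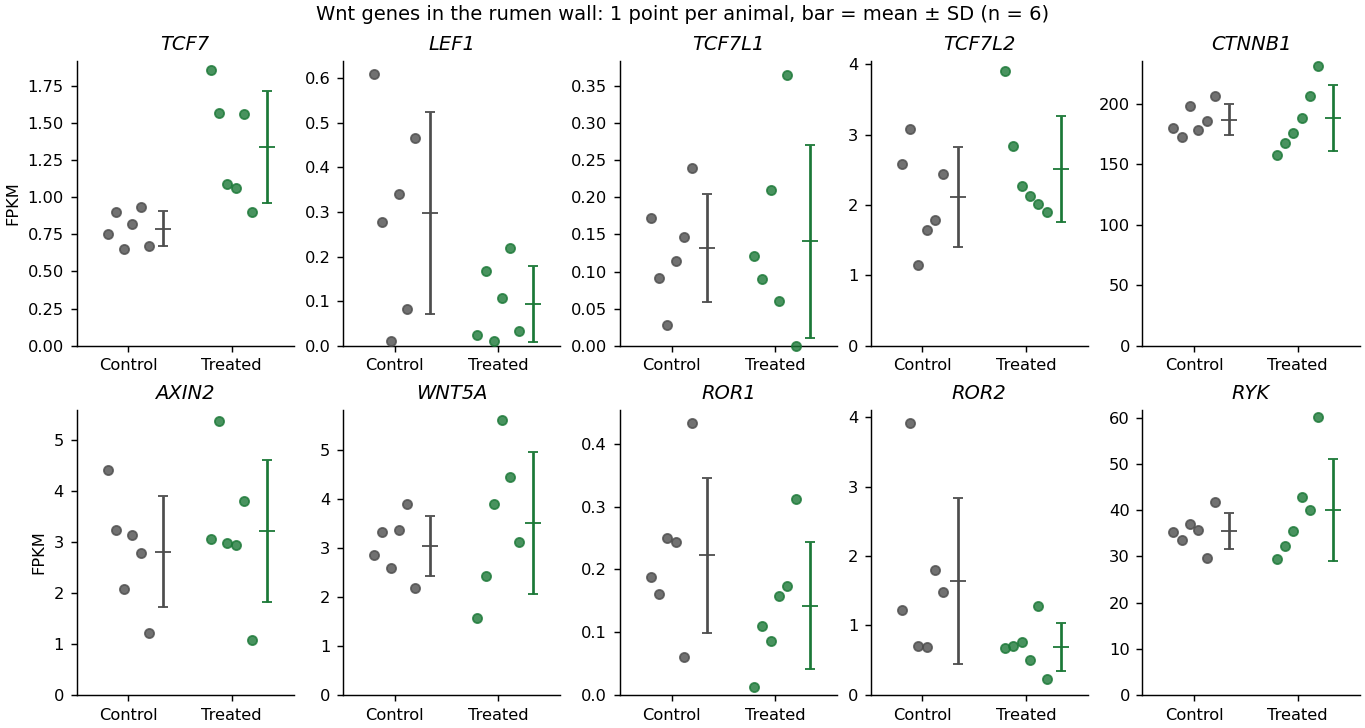
FPKM of the 10 Wnt genes, 1 panel per gene with its own linear axis, 1 point per animal (n = 6 per diet) and the mean ± SD beside the points. In TCF7, 5 of 6 treated points lie above every control point, while in the other genes the groups overlap more widely, with 1 control animal at 3.92 FPKM in ROR2.

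Across the 10 genes, 5 had a higher and 5 a lower mean log2 level in treated animals, with a median difference of 0.06 against 0.00 over the 17177 genes tested. All 10 passed the filter of a mean of at least 0.1 FPKM over the 12 animals. In limma, 2.01% of the genes tested were under a nominal p of 0.05, 1.09% with a higher and 0.926% with a lower treated level, as were 2 of the 10 genes, TCF7 and ROR2, which were in the list for this contrast. After adjustment 0.0% of all genes and 0 of the 10 were called by limma, with 346 genes under the nominal threshold and 0.9997 as the smallest adjusted p. The groups did not overlap in 0.064% of the genes tested and in 0 of the 10. Nothing is read from these counts of the 10 genes.

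**Figure D3:**
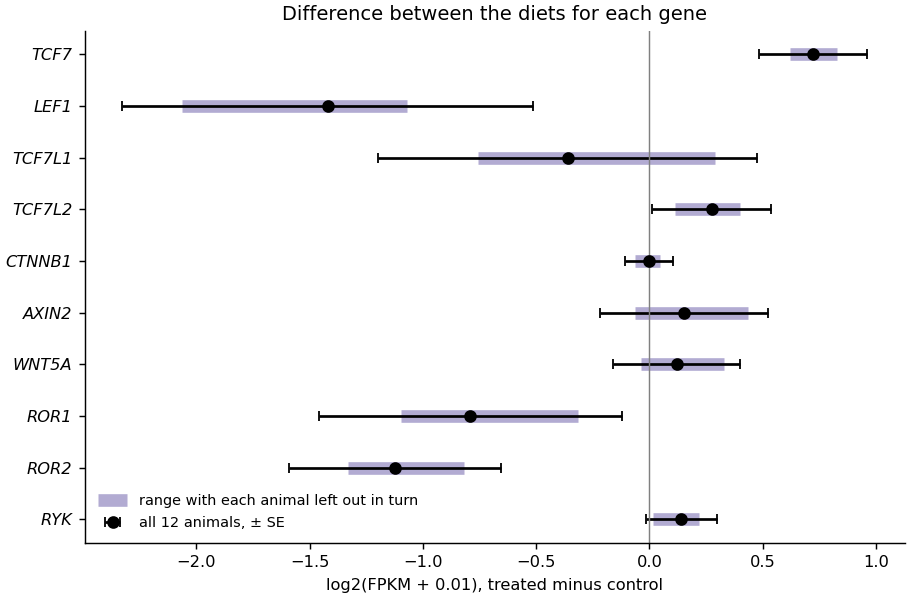
Difference between the diets in log2(FPKM + 0.01), treated minus control, for each gene. Points with bars are the difference ± standard error over 12 animals and the wide bands the range with each animal left out in turn. TCF7 at 0.72 lies to the right of 0 and LEF1 at -1.42 and ROR2 at -1.12 to the left, with the widest bars for the genes of few reads.

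Marker lists of other cell types were set beside these differences, and 0 of their genes passed the adjustment in limma. All 11 smooth muscle markers had a lower treated mean log2 level, with a median difference of -0.72, and 3 of them, DES, CNN1 and ACTG2, were under the nominal limma threshold of 0.05, beside 2.01% of all genes. CNN1 and ACTG2 were low, with means of 0.78 and 0.58 FPKM and treated animals down to 0 reads. Their differences of -3.06 and -2.21 became -0.66 and -0.50 with a pseudocount of 1. DES had an exact permutation p of 0.0519. SMTN, the highest of the list at 13.5 FPKM, differed by -0.03. All 10 fibroblast markers had a lower treated mean log2 level, with a median of -0.66 and 0 under the nominal limma threshold. In mean FPKM THY1 was higher in the treated group, at 2.07 against 1.94. With the mean level of both lists as a covariate, the TCF7 difference between the diets was 0.51 ± 0.25 (standard error) in place of 0.72. It was -1.34 ± 1.07 for LEF1, -1.35 ± 0.54 for ROR2 and -0.05 ± 0.66 for ROR1, in place of -1.42, -1.12 and -0.79. For TCF7L2 it was -0.01 in place of 0.27. For RYK it was 0.32, for WNT5A 0.42, for CTNNB1 0.11, for AXIN2 -0.07 and for TCF7L1 -0.47. The mean log2 levels of the lists themselves differed between the diets, by -0.98 for smooth muscle and -0.63 for fibroblasts. The covariate thus takes up part of the diet contrast, and diet and covariate cannot be fully separated. Of the 15 T cell markers tested, 12 had a lower treated mean log2 level, with a median difference of -0.15 and 0 at a nominal limma p-value below 0.05. The squamous list had 8 of 11 tested markers with a higher treated mean log2 level and a median of 0.08. The endothelial list had 8 of 9 with a lower treated mean log2 level and a median of -0.10. The part of the smooth muscle markers in the diet differences was not tested beyond the covariate.

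The order of the genes by level did not enter their choice and was tested over all 12 animals. By mean log2 level it was CTNNB1, RYK, WNT5A, AXIN2, TCF7L2, TCF7, ROR2, ROR1, LEF1 and TCF7L1. Neighbours were compared within animals by an exact two-sided sign-flip permutation test, with Benjamini-Hochberg adjustment over 9 pairs and 0.000488 as the smallest p-value possible. CTNNB1 exceeded RYK by 2.33 ± 0.17 on the log2 scale (SD, n = 12, adjusted exact permutation p = 0.00146) and RYK exceeded WNT5A by 3.57 ± 0.50 (adjusted exact permutation p = 0.00146), both in 12 of 12 animals. WNT5A, AXIN2 and TCF7L2 followed each other without a difference beyond their spread (adjusted exact permutation p = 0.61 and 0.242). TCF7L2 then exceeded TCF7 by 1.13 ± 0.44 in 12 of 12 animals (adjusted exact permutation p = 0.00146), while TCF7 and ROR2 did not differ beyond their spread over the pooled animals (adjusted exact permutation p = 0.755). TCF7 was the higher of the 2 in 7 of 12 animals, which included every treated animal. The mean FPKM of ROR2 and TCF7 was 1.64 and 0.787 in control but 0.695 and 1.34 in treated animals. For this pair the pooled test thus mixes in the diet contrast for which both genes were listed. ROR2 exceeded ROR1 by 2.60 ± 1.57 in 11 of 12 animals (adjusted exact permutation p = 0.0022), the exception being treated animal 6. ROR1, LEF1 and TCF7L1 could not be ordered (adjusted exact permutation p = 0.61 and 0.755).

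**Figure D4:**
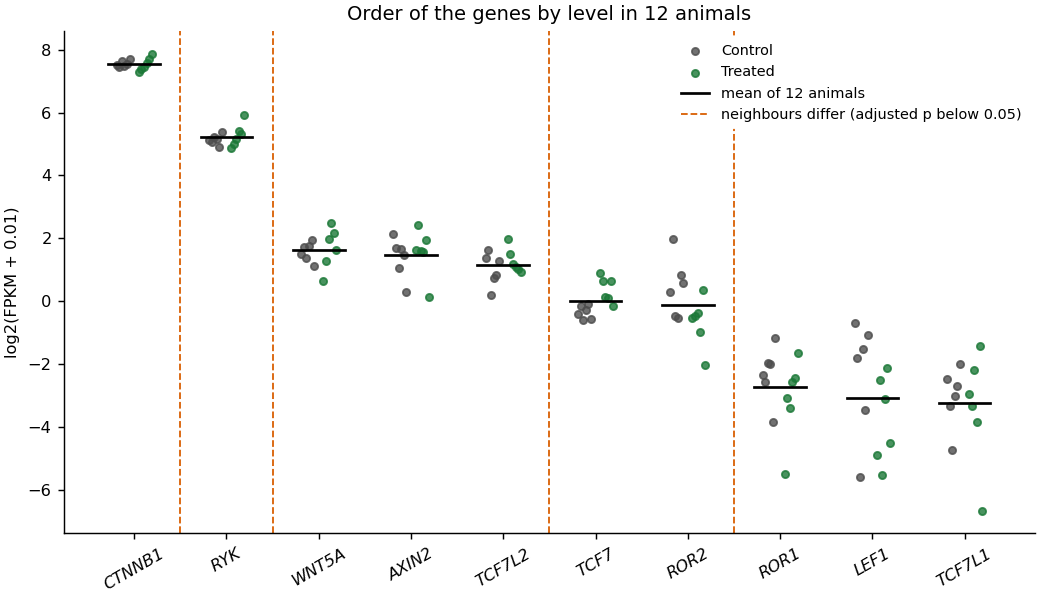
Level of each gene in log2(FPKM + 0.01), in order of the mean over 12 animals (black line), with 1 point per animal. Dashed lines stand between neighbours with an adjusted p below 0.05, and they split the genes into CTNNB1, RYK, a group of 3 genes around WNT5A, the pair TCF7 and ROR2, and the 3 lowest genes. The group means of TCF7 and ROR2 stand in opposite orders in control and treated animals.

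Animals of one diet differed among themselves, and the genes were compared on this variation after centring on the group means, which removes the contrast that the choice of genes had used. Over 45 pairs of genes and 12 animals, 11 had an exact permutation p-value below 0.05 and 1 an adjusted one. CTNNB1 and RYK varied together, with Pearson r = 0.895 (exact permutation p = 0.000893, adjusted 0.0402) and Spearman rho = 0.867 (exact permutation p = 0.00338, adjusted 0.076). Without the 2 animals farthest from the median of CTNNB1 r was 0.713, within the groups it was 0.644 in control and 0.948 in treated animals, and without the 2 libraries that stood apart it was 0.745 with an adjusted exact permutation p of 0.43, so that the call rests on those animals. ROR1 and RYK had r = 0.855 (exact permutation p = 0.00256, adjusted 0.0575) and rho = 0.909 (exact permutation p = 0.000448, adjusted 0.0201), with r = 0.890 without the 2 farthest animals and 0.871 without the 2 that stood apart, where it passed the adjustment (adjusted exact permutation p = 0.0438). TCF7L2 and CTNNB1 had r = -0.600 (exact permutation p = 0.0265, adjusted 0.119) and rho = -0.657 (exact permutation p = 0.0206, adjusted 0.185), with r = -0.433 without the 2 farthest animals and -0.777 without the 2 that stood apart (adjusted exact permutation p = 0.0438). TCF7 and RYK varied in opposite directions with r = -0.816 (exact permutation p = 0.00518, adjusted 0.0777) and rho = -0.776 (exact permutation p = 0.0254, adjusted 0.19), a relation that did not pass the adjustment, with r = -0.671 without the 2 farthest animals. Without the 2 that stood apart r was -0.709 (adjusted exact permutation p = 0.43). TCF7 and LEF1, which differed in sign between the diets, had r = 0.227 (exact permutation p = 0.458, adjusted 0.573) and rho = 0.21 (exact permutation p = 0.513, adjusted 0.676) within the groups, and no relation was detectable with 12 animals.

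The same centred levels were compared with the mean log2 level of 6 marker lists, which made 60 relations, of which 13 had an exact permutation p-value below 0.05 and 7 an adjusted one. RYK had the largest, r = -0.910 with the squamous list (exact permutation p = 0.000154, adjusted 0.00926), with rho = -0.881 (exact permutation p = 0.000324, adjusted 0.0194), and r = -0.769 without the 2 animals farthest from the median of RYK. CTNNB1 likewise had r = -0.867 with the squamous list (exact permutation p = 0.000392, adjusted 0.0117) and rho = -0.790 (exact permutation p = 0.00479, adjusted 0.0479), and r = -0.701 without the 2 farthest. TCF7 was instead higher in animals with more of the squamous list, with r = 0.802 (exact permutation p = 0.000681, adjusted 0.0136), rho = 0.811 (exact permutation p = 0.00119, adjusted 0.0358) and r = 0.723 without the 2 farthest animals, and with values of 0.746 within the control and 0.839 within the treated group. AXIN2 did so too, with r = 0.902 (exact permutation p = 0.00216, adjusted 0.0268) and rho = 0.755 (exact permutation p = 0.01, adjusted 0.0669), but r was 0.528 without the 2 farthest animals, which are the 2 that stood apart.

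With the fibroblast list, CTNNB1 had r = 0.817 (exact permutation p = 0.00395, adjusted 0.0371) and rho = 0.832 (exact permutation p = 0.00438, adjusted 0.0479), and r = 0.828 without the 2 farthest animals. ROR1 had r = 0.793 (exact permutation p = 0.00223, adjusted 0.0268) and rho = 0.790 (exact permutation p = 0.00718, adjusted 0.0607), and r = 0.709 without the 2 farthest. TCF7L2 had r = -0.749 (exact permutation p = 0.00432, adjusted 0.0371) and rho = -0.783 (exact permutation p = 0.00419, adjusted 0.0479), and r = -0.494 without the 2 farthest, so that it leans on these animals. When treated animal 6 and control animal 6 were both left out, all of these 7 relations kept their sign, with r from 0.528 to 0.889 or from -0.814 to -0.721, but with 10 animals their adjusted exact permutation p-values were 0.0531 to 0.36. The 1 relation that passed in these 10 animals was another, TCF7L2 with the squamous list, at r = 0.903 (adjusted exact permutation p = 0.0375) against 0.441 over 12 animals. All FPKM of an animal share 1 total, the genes and the lists alike.

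LEF1 varied most with the T cell list, at r = 0.650 (exact permutation p = 0.0142, adjusted 0.0852) and rho = 0.580 (exact permutation p = 0.059, adjusted 0.236), which did not pass the adjustment and was r = 0.290 without the 2 farthest animals and 0.724 without the 2 that stood apart (adjusted exact permutation p = 0.102). TCF7, which is also known from T cells, had r = -0.077 with that list (exact permutation p = 0.876, adjusted 0.955) and rho = -0.329 (exact permutation p = 0.362, adjusted 0.671). The mean of the list weighs every marker alike. CD8A and CD8B, with 0 to 12 and 0 to 7 reads per animal, had within-group log2 SDs of 2.06 and 2.21. That of CD247, the highest of the list, was 0.31. The part of these low markers in both relations was not tested. ROR2 had r = 0.557 with the squamous list (exact permutation p = 0.0761, adjusted 0.326) and rho = 0.636 (exact permutation p = 0.0371, adjusted 0.168), with r = -0.009 once the 2 animals farthest from its median were left out.

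**Figure D5:**
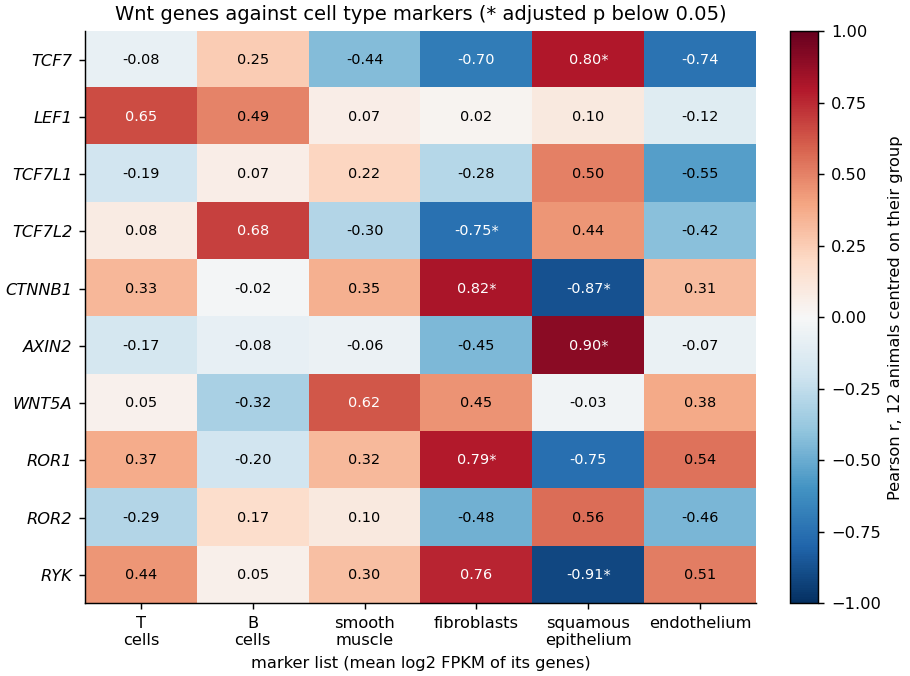
Pearson r, over 12 animals centred on their group, of the log2 level of each Wnt gene with the mean log2 level of each of 6 marker lists. Stars mark an adjusted p below 0.05. TCF7 and AXIN2 at 0.80 and 0.90 and CTNNB1 and RYK at -0.87 and -0.91 stand on opposite sides in the squamous column.

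Among the 12283 genes with a mean of at least 1 FPKM, the genes whose centred levels were most like those of TCF7 over 12 animals were APP with r = 0.943, MAP3K6 with 0.904 and C3H9orf3 with 0.900. For LEF1 they were FAM117B, DAPK1 and ZFP3 with r = 0.883, 0.880 and 0.870. For ROR2 they were FOXP2, BAZ2B and PRLR with r = 0.955, 0.938 and 0.902. These are the highest of many values from animals that share library totals and are given as a description only.

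The rest of the pathway was described with a list of 140 other Wnt genes. Of these, 4 symbols (CSNK1E, PYGO2, TLE1 and TLE5) had no row by that name, 4 ligand genes (WNT1, WNT2, WNT8A and WNT8B) were listed at 0 in all animals, 26 were below the filter and 106 were tested. In 50 the treated mean log2 level was higher and in 56 lower, with a median difference of -0.01, and 0 had an adjusted limma p-value below 0.05. Under the nominal limma threshold were 3 of the 106, or 2.83%, beside 2.01% of all genes, and all 3 had the lower level in treated animals. By role, 2 of them were among the 9 ligands and their enhancers tested and 1 among the 22 genes of cytoplasmic signalling and beta-catenin destruction, with 0 among 20 receptors, 8 secreted and membrane inhibitors, 15 nuclear co-factors, 18 genes of polarity and the WNT5A branch, 7 common targets, 5 junction partners and 2 genes of ligand processing.

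RSPO3, a secreted enhancer of Wnt signals often made by stromal cells, had 0.200, 0.513 and 1.26 FPKM at the lowest, median and highest control animal and 0, 0.176 and 0.445 FPKM in treated animals. All 6 treated animals were below the control median. Its log2 difference was -1.99 with a standard error of 0.85 (limma nominal p = 0.034, adjusted 0.9997, exact permutation p = 0.0346), on 90 control and 28 treated reads, and it was -1.25 without treated animal 6. NKD1, an inhibitor that binds Dishevelled and is induced by the canonical branch, had 0.414, 0.498 and 0.719 FPKM in control and 0.106, 0.358 and 0.462 FPKM in treated animals, again with all 6 treated animals below the control median. Its difference was -0.91 with a standard error of 0.41 (limma nominal p = 0.0436, adjusted 0.9997, exact permutation p = 0.0195). WNT5B, the close relative of WNT5A, had means of 0.511 ± 0.300 and 0.268 ± 0.414 FPKM and a difference of -2.35 with a standard error of 1.05 (limma nominal p = 0.043, adjusted 0.9997, exact permutation p = 0.0693). None of the 3 passed the adjustment over all genes. With the stromal covariate 0 of the 106 were under the nominal limma threshold, and the differences were -1.66 for RSPO3, -0.43 for NKD1 and -1.29 for WNT5B.

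The most abundant gene of each role gave no call between the diets. WNT7B, an epithelial ligand, had means of 4.26 ± 1.54 and 4.26 ± 1.95 FPKM, and WLS, which carries ligands to the cell surface, 28.1 ± 1.88 and 29.3 ± 7.50. The receptor FZD6 had 37.1 ± 9.96 and 32.7 ± 3.60 FPKM, near the level of RYK, and the secreted inhibitor SFRP1 55.3 ± 6.02 and 55.1 ± 7.48. The kinase CSNK1A1, which primes beta-catenin for destruction, had 138 ± 9.59 and 137 ± 9.25 FPKM, the repressor HBP1 43.7 ± 3.12 and 39.1 ± 8.97, the GTPase RHOA 78.8 ± 12.3 and 85.6 ± 18.0 and the target CD44 70.6 ± 4.36 and 77.0 ± 9.10. JUP, the junction protein closest to beta-catenin, had 188 ± 58.4 and 204 ± 101 FPKM, about the level of CTNNB1 itself. The smallest nominal limma p of these 9 genes was 0.19, for HBP1.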

How the data were processed

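The authors trimmed reads (Trimmomatic 0.39), aligned them (STAR 2.5.2b) to the buffalo genome and counted them per gene (featureCounts 2.0.0). They deposited FPKM for 34037 genes without a filter on genes, and the tool behind the FPKM is not given in the sources used here. Of 16 value columns, 12 matched the labels of the animals and 4 were not used. Reads and counted fragments were worked out from the FPKM alone, as the values per gene are whole multiples of 1 read (tolerance 0.001), and they account for over 99.999% of each total.

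Levels were compared with limma 3.58.1 (lmFit, eBayes with trend, R 4.3.3) on log2(FPKM + 0.01), for genes with a mean of at least 0.1 FPKM over 12 animals, with Benjamini-Hochberg adjustment over 17177 genes. A count model was not used, since counts were not the deposited unit. Differences on this scale depend on the pseudocount for low genes and can be smaller or larger than the ratio of the group means. Exact permutation tests were two-sided, over 924 assignments of animals for single genes (smallest p 0.00216) and within groups for correlations. All were tested on simulated data, and tables and figures were made with Python 3.11.15 and matplotlib 3.10.9.

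The 10 genes, the pathway list and the marker lists were chosen with earlier results of these data known. Named genes are the 10, pathway genes with a nominal p-value below 0.05, the most abundant gene of each role, 3 genes most like TCF7, LEF1 and ROR2, and markers at 0, below the filter or in counts of at most 5. Alternatives were pseudocounts, filters, scaling by the median ratio, robust empirical Bayes, the replicate number as a block, a stromal covariate (mean of smooth muscle and fibroblast markers) and each animal left out. Voom on these reads and leaving out 2 libraries that stood apart were added after the data had been seen. Sequences and coordinates were not used here.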

Additional observations from a re-analysis of the deposited data

Results flagged for a closer look

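In 26 sets of 6 animals (the 10 genes and the 3 pathway genes named by their p-value, in both groups), 2 held an animal far from the others. Chance alone gives about 1 in 20 where values are normally distributed, which FPKM need not be. The share found is not far from that rate. ROR2 in control animal 2 was 3.92 FPKM, with the next control animal at 1.80, a gap of 0.657 of the range of the group. WNT5B in treated animal 3 was 1.08 FPKM, with the next treated animal at 0.306 and a gap of 0.717 of the range.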

How the results depend on the processing

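Read depth limits LEF1, ROR1 and TCF7L1, each with 1 read or fewer in at least 1 animal. The differences of TCF7, LEF1, ROR1, ROR2 and RYK kept their sign in 22 alternatives, and TCF7L1, TCF7L2, CTNNB1, AXIN2 and WNT5A did not keep it in all. TCF7 ranged from 0.37 to 0.83, LEF1 from -2.06 to -0.23, ROR2 from -1.35 to -0.56 and ROR1 from -1.10 to -0.05. Genes at a nominal limma p-value below 0.05 numbered 346 and became 562 with no filter and 567 with the stromal covariate, with 316 to 496 when single animals were left out. Adjusted calls numbered 0 to 1 with single animals left out, 1 each without control animal 4 (LOC112578305) and without treated animal 1 (LOC102397142), both named after their values were seen. Of the other Wnt genes, 3 nominal calls became 5 with no filter, 0 with the stromal covariate, 6 without both libraries that stood apart and 0 to 5 with single animals left out (0 without control animal 1, 1 without control animal 5 or treated animal 2, 5 without treated animal 5 or 6). The calls of RSPO3, WNT5B and NKD1 were lost in 6, 11 and 12 of 22 alternatives, and their direction in 0. With a pseudocount of 0.1 and 1 the differences were -1.26 and -0.41 for RSPO3, -1.18 and -0.28 for WNT5B and -0.70 and -0.23 for NKD1. The cause was not tested. Of the pairs among the 10 genes, 1 passed the adjustment, 3 with a pseudocount of 0.1, 3 with 1, 2 without the libraries that stood apart and 0 to 6 with single animals left out. Marker relations numbered 7, then 1 (TCF7L2 with the squamous list, none of the 7) without those libraries and 2 to 7 with single animals left out (4 without control animal 3, treated animal 1 or treated animal 6, 3 without treated animal 3, 2 without treated animal 2). With another pseudocount or scaling they numbered up to 9. The 4 separated neighbours in the order of levels were 4 in all 14 alternatives.

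No pairing of animals by replicate number is described in the sources used here, and the main comparison used none. On average, same-numbered animals were nonetheless somewhat more alike than other pairs. The 2 libraries that stood apart both carry the number 6. These numbers are those of the sample descriptions. The sample titles number several animals otherwise, and there the 2 libraries carry numbers that differ from each other. The cause of this likeness was not tested. Over the genes tested, same-numbered animals of both groups had correlations of -0.00165 to 0.187 (2 of 6 pairs above 0.1, mean 0.0821, against -0.0162 for 30 other pairs), and 6 of 12 animals correlated best with their own number. With the replicate number as a block, 519 genes were nominal and 0 adjusted limma calls. Of the other Wnt genes 3 were nominal calls under the block, with a nominal limma p of 0.0569 for NKD1.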
